A study of Homo sapiens with 12 samples.

Results

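Collagen chain genes are the genes whose symbol is COL, a type number, A and a chain number, and each encodes one polypeptide chain of a triple-helical collagen. Of 25433 genes in the tables, 37 carried such a symbol, out of 44 collagen chain genes in a list sorted by protein class. The list gave 11 fibrillar genes, of which 10 had a row, and 6 basement membrane genes, all with a row. Rows were also found for 4 of 5 beaded filament genes, 8 of 10 FACIT genes, 2 of 4 transmembrane genes, 2 of 3 short-chain network genes, both multiplexin genes, the anchoring fibril gene COL7A1 and the unclassed COL26A1 and COL28A1. COL24A1, COL8A1, COL6A5, COL9A1, COL19A1, COL23A1 and COL25A1 had no row. COL1A2 and COL2A1 had a row only in the table that holds acetate-treated cells, so no control level is given for them.

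The cells were A549, an established human lung adenocarcinoma line with alveolar epithelial features, at passage 5 to 10. One group of 4 libraries received 10 ng/mL TGF-β1 with 40 mM sodium acetate for 2 days, a second group of 4 received 10 ng/mL TGF-β1 alone, and 4 control libraries received neither. Total RNA depleted of ribosomal RNA was sequenced, and total counts per library ran from 34698057 to 41575904 with acetate, from 37202599 to 53936023 with TGF-β1 and from 38400896 to 53055990 in control. The count columns match no sample label, so columns S22 to S25 were taken as acetate, S15 to S18 as TGF-β1 and S1 to S4 as control from the table names and the columns both tables share, and every comparison rests on that placement. No library had acetate without TGF-β1, and the sodium added with acetate had no control of its own. Whether a group's libraries were separate cultures is not stated in the labels, and p-values reflect library-to-library spread that may be technical. Per-library values below are listed in the order of those column numbers, which have no meaning as a series, in CPM, a gene's counts relative to the library total after correction for composition. A count of 3 equals 0.0564 to 0.0856 CPM, the floor of detection for counting error. In bulk RNA, fewer cells of a kind and less RNA per cell cannot be told apart.

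Collagen chains wind around each other into a triple helix through repeats that place glycine at regular steps. Fibrillar collagens (types I, II, III, V, XI, XXIV and XXVII) form the cross-striated fibrils of connective tissue, type IV forms the sheet-like network of basement membranes, and type VI forms beaded filaments next to them. FACIT collagens sit on fibril surfaces, multiplexins line basement membranes and shed fragments from their ends, and transmembrane collagens anchor in the plasma membrane. TGF-β is a known inducer of collagen genes in fibroblasts and in epithelial cells that take on mesenchymal features, and lung epithelium rests on a basement membrane rich in type IV collagen.

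The collagen chain genes together took 6943 ± 448 CPM in acetate-treated cells, 7073 ± 196 CPM with TGF-β1 alone and 1629 ± 23 CPM in control (mean ± SD, n = 4 each; COL1A2 and COL2A1 add nothing in control). Libraries ran from 6575 to 7498 CPM with acetate, from 6801 to 7248 CPM with TGF-β1 and from 1596 to 1646 CPM in control, so the treated groups overlapped and control stood apart. Basement membrane chains held 41.3 ± 0.516% of the summed CPM with acetate, 51.4 ± 0.277% with TGF-β1 and 34.3 ± 0.498% in control. Fibrillar chains held 40.5 ± 0.971%, 35.8 ± 0.225% and 29.2 ± 0.53% in the same groups. The shares of the anchoring fibril gene COL7A1 were 10.5 ± 0.187%, 6.52 ± 0.259% and 18.6 ± 1.1%, and those of the beaded filament genes 1.82 ± 0.124%, 0.481 ± 0.0238% and 1.27 ± 0.0806%. With each level divided by transcript length, the chain with the largest share in control was COL5A2 at 17.9 ± 0.121% of the summed level per kb, followed by COL18A1 at 14.6 ± 0.378%, COL4A2 at 14.5 ± 0.664% and COL7A1 at 14.4 ± 0.903%, the last 3 of which lay within their spread of each other. COL4A2 led in both treated groups, with 25.3 ± 0.447% with acetate and 27.5 ± 0.395% with TGF-β1. COL4A1 stood at 16.3 ± 0.268% and 25.9 ± 0.221% in those groups, and COL5A1 at 21.9 ± 0.786% and 15 ± 0.229%, so COL5A1 ranked second with acetate and COL4A1 second with TGF-β1 alone.

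**Figure D1:**
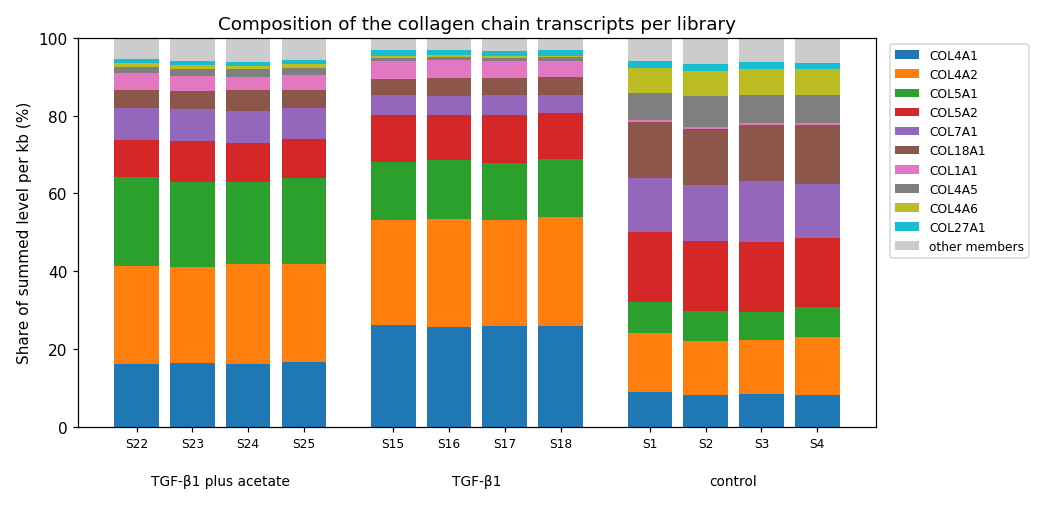
Share of each collagen chain gene in the summed level per kb of transcript (%, y axis) in each library (x axis), with acetate-treated, TGF-β1 and control libraries from left to right; COL1A2 and COL2A1 count as 0 in control. COL4A1 and COL4A2 fill the largest part of each TGF-β1 bar, COL5A1 is widest with acetate, and COL4A5 and COL4A6 are widest in control.

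Under TGF-β1 alone, 23 of 35 tested collagen chain genes were higher than in control and 6 were lower at an edgeR adjusted p below 0.05, against 34.1% and 32.8% of all genes tested, or 66.9% in either direction. Changes of at least 2-fold were found for 19 genes upward and 4 downward, where 8.92% and 8.68% of all genes moved that far. The median log2 fold change was 1.33 over the collagen genes and 0.02 over all genes. Libraries of both groups did not overlap for 29 of the 35, against 61.4% of all genes.

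With acetate added to TGF-β1, 22 of 37 collagen chain genes were higher and 9 lower than with TGF-β1 alone, against 33.3% and 30.4% of all genes, or 63.7% in either direction, and 30 did not overlap between groups, against 57.3%. At least 2-fold changes were 14 upward and 3 downward, against 10.8% and 2.07% of all genes, and the median log2 fold change was 0.67, against 0.03 over all genes. COL2A1 is among the genes at least 2-fold higher, but it had a row only alongside the acetate libraries, the group where it was high. Its call therefore adds no support to these counts. Scaled by library totals alone, all genes had a median of 0.16, the collagen counts became 23 higher and 6 lower, and the counts over all genes became 9592 higher and 4699 lower in place of 7437 and 6792. This comparison uses the same TGF-β1 libraries as the first one.

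Acetate-treated cells set against control gave 27 of 35 genes higher and 2 lower, against 36.1% and 34.4% of all genes, or 70.6% in either direction. Of these, 26 were at least 2-fold higher, against 14.3% of all genes, and 0 at least 2-fold lower, against 5.47%. Groups did not overlap for 29 genes, against 64.0% of all genes. The median log2 fold change was 1.97, against 0.02 over all genes. Every gene with a row passed the filter on low counts in each comparison, but genes absent from a table were not tested there. The filter asks for enough counts in 4 libraries, so the group where a gene is high can meet it alone. Examples are COL22A1, COL14A1, COL9A2, COL6A3 and COL5A3, with few control counts, and COL28A1, with 2 to 4 counts per TGF-β1 library. Such calls add no support to the counts of genes called in the 3 comparisons.

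**Figure D2:**
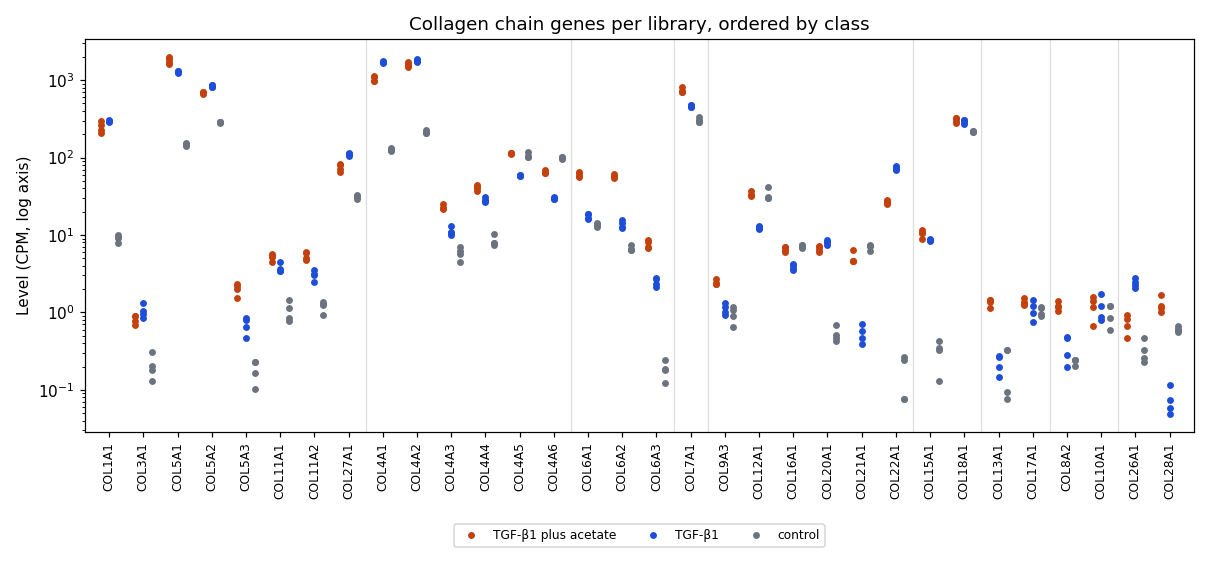
Level in CPM (log axis) of the 32 collagen chain genes that averaged 1 CPM or more in any group, one point per library, grouped by class along the x axis; within each gene the acetate-treated libraries are left, TGF-β1 in the middle and control right. The points of a group lie close together for genes above 10 CPM and spread out below 1 CPM.

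**Figure D3:**
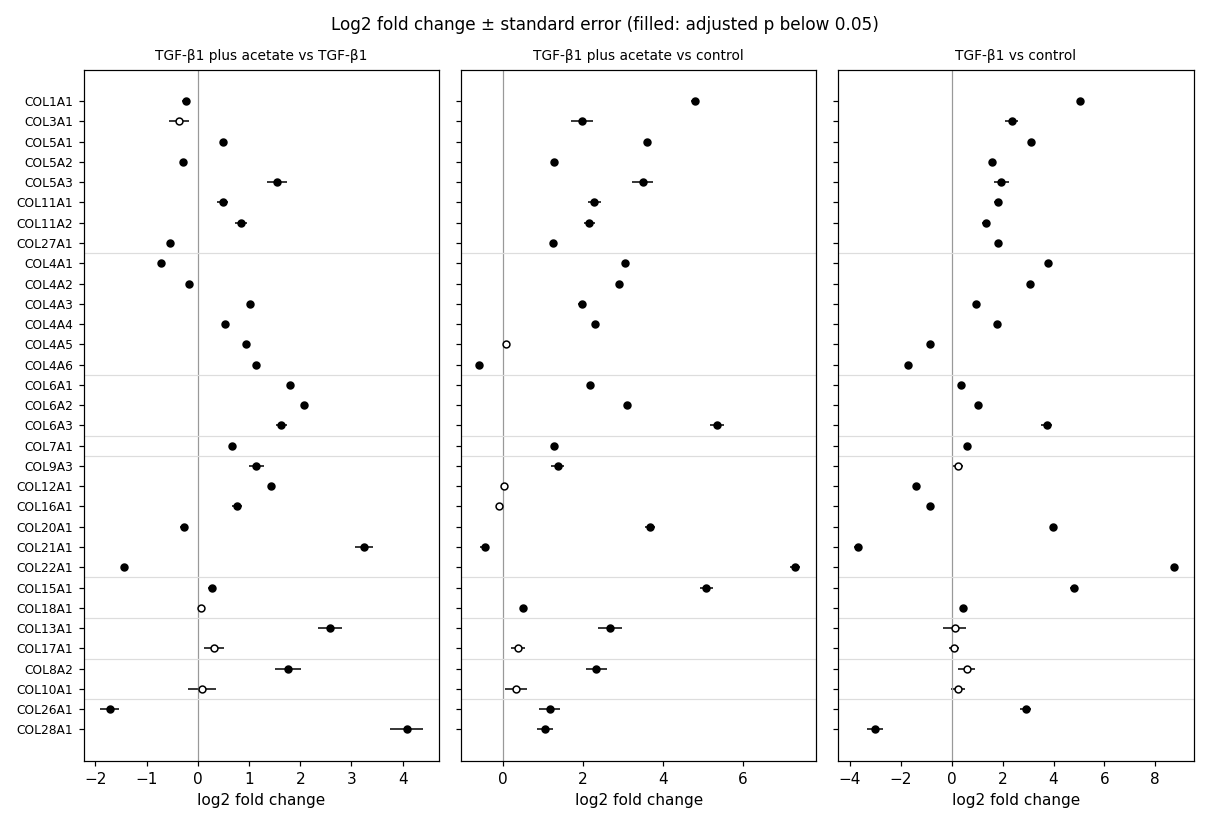
Log2 fold change (x axis) with its standard error for the same 32 genes in the 3 comparisons; filled points passed at an adjusted p below 0.05 and open points did not. All fibrillar genes shown lie right of 0 under TGF-β1 and with acetate against control, while basement membrane and FACIT genes lie on both sides under TGF-β1.

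Type IV genes are arranged in head-to-head pairs that are transcribed away from each other. COL4A1 (ENSG00000187498.14, chromosome 13, 110148963 to 110307149, minus strand) and COL4A2 (ENSG00000134871.17, chromosome 13, 110305812 to 110513027, plus strand) have gene spans in the tables, on hg38, that overlap. COL4A4 (chromosome 2, 227002711 to 227164113, minus strand) and COL4A3 (chromosome 2, 227164565 to 227314792, plus strand) lie 451 bases apart, and COL4A6 (chromosome X, 108155607 to 108439497, minus strand) and COL4A5 (chromosome X, 108439844 to 108697545, plus strand) lie 346 bases apart. The stretches upstream of both starts of a pair, within 250 bases of each, are printed because each is common to 2 genes whose levels are compared next. They come from RefSeq on GRCh38.p14 and are written on the plus strand; capitals mark, on either strand, the letters CCAAT of the box named after them, the GC box letters GGGCGG, the SMAD element letters CAGAC and the TATA box letters TATAAA, and no 2 marks overlap.
COL4A1 and COL4A2, chr13:110307158-110307283: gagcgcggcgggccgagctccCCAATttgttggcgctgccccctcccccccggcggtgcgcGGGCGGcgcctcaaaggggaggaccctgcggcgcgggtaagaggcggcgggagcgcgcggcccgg
COL4A3 and COL4A4, chr2:227164374-227164455: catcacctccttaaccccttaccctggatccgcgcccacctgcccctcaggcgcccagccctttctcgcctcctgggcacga
COL4A5 and COL4A6, chrX:108439588-108439708: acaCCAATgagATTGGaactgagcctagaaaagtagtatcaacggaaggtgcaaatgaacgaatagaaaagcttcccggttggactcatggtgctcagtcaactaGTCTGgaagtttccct
RefSeq starts of the pairs are 126, 418 and 379 bases apart, the last for the upstream of 2 starts of COL4A6. The stretch of COL4A1 and COL4A2 holds 1 CCAAT box and 1 GC box, that of COL4A5 and COL4A6 holds a CCAAT box on each strand and 1 SMAD element on the minus strand, and that of COL4A3 and COL4A4 holds none of the 4. Over windows of 300 bases around starts (250 before and 50 after), CAGAC was found in 18 of 37 windows of 27 collagen chain genes and in 45.3% of all 35116 windows, GGGCGG in 22 and 45%, CCAAT in 12 and 34.6%, and TATAAA in 8 and 11.5%. These matches describe letters only.

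COL4A1 and COL4A2 encode the α1 and α2 chains that are present in nearly all basement membranes. COL4A1 had 1116, 984, 976 and 1091 CPM with acetate, 1664, 1719.7, 1718 and 1765 CPM with TGF-β1 and 134, 124, 126 and 121 CPM in control. COL4A2 had 1698, 1471, 1544 and 1611 CPM with acetate, 1699, 1836, 1773 and 1866 CPM with TGF-β1 and 224, 205, 206 and 214 CPM in control. Both were far above control in all 8 treated libraries, and the acetate libraries lay between the other groups, by a wide gap for COL4A1, while for COL4A2 the highest acetate library and the lowest TGF-β1 library were nearly equal. Under TGF-β1 COL4A1 rose by 3.77 ± 0.04 and COL4A2 by 3.08 ± 0.04 on the log2 scale (± SE; edgeR adjusted p = 9.2e-20 and 1.2e-18). With acetate both were lower than with TGF-β1 alone, COL4A1 with a log2 fold change of -0.71 ± 0.04 (edgeR adjusted p = 6.5e-10) and COL4A2 with -0.17 ± 0.04 (edgeR adjusted p = 0.0018). Scaling by totals ended the COL4A2 call (log2 fold change -0.04, edgeR adjusted p = 0.37), and adjusted p spanned 0.00018 to 0.37 over the alternatives tried. The antisense genes COL4A2-AS1 and COL4A2-AS2 share 81 and 14 exon bases with COL4A2 and averaged 1744.2 and 1419.5 counts with acetate, 2315.2 and 1575.5 with TGF-β1 and 293.2 and 203.0 in control, against 63354.8, 75027.0 and 10107.5 counts of COL4A2 itself.

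COL4A3 and COL4A4 encode the α3 and α4 chains, which join α5 in the network of glomerular and alveolar basement membranes. COL4A3 had 22.6, 21.4, 22.5 and 24.8 CPM with acetate, 11.1, 9.99, 13.1 and 10.7 CPM with TGF-β1 and 4.46, 6.9, 6.18 and 5.74 CPM in control. COL4A4 had 43.6, 41, 37.1 and 41.9 CPM with acetate, 27.8, 26.8, 30.5 and 28 CPM with TGF-β1 and 7.92, 10.3, 7.94 and 7.33 CPM in control. Both genes were lowest in control and highest with acetate, with no overlap between any 2 groups. TGF-β1 raised COL4A3 by 0.96 ± 0.11 and COL4A4 by 1.76 ± 0.08 on the log2 scale, and acetate added a further 1.03 ± 0.08 and 0.54 ± 0.05, with the largest edgeR adjusted p of the 4 at 1.1e-06. An antisense gene, AC097662.1, shares 120 exon bases with COL4A3 and averaged 82.0 counts with acetate, 55.8 with TGF-β1 and 56.0 in control, against 918.2, 476.5 and 275.8 counts of COL4A3.

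COL4A5 and COL4A6 encode the α5 and α6 chains, which combine in the basement membranes of skin, airway and other epithelia. COL4A5 had 109.7, 113, 115 and 113 CPM with acetate, 58, 57.3, 60.3 and 60 CPM with TGF-β1 and 102, 117, 106 and 102 CPM in control. COL4A6 had 64.9, 64, 62.8 and 69.6 CPM with acetate, 30.4, 29.3, 30.8 and 29 CPM with TGF-β1 and 96.1, 98.4, 103 and 102 CPM in control. These were the only type IV chains lower with TGF-β1 than in control, with log2 fold changes of -0.85 ± 0.05 and -1.73 ± 0.04 (edgeR adjusted p = 4.7e-11 and 4.9e-16). With acetate they were higher than with TGF-β1 alone, with log2 fold changes of 0.94 ± 0.03 and 1.14 ± 0.04 (edgeR adjusted p = 3.0e-12 and 4.1e-12). Against control, COL4A6 in acetate-treated cells was lower (-0.61 ± 0.04, edgeR adjusted p = 3.1e-11), while COL4A5 overlapped control and did not pass (0.08 ± 0.04, edgeR adjusted p = 0.1). COL4A5 did pass against control when scaled by totals (0.12, edgeR adjusted p = 0.011) or when control library S2 was left out (0.10, edgeR adjusted p = 0.014), and adjusted p spanned 0.011 to 0.29.

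**Figure D4:**
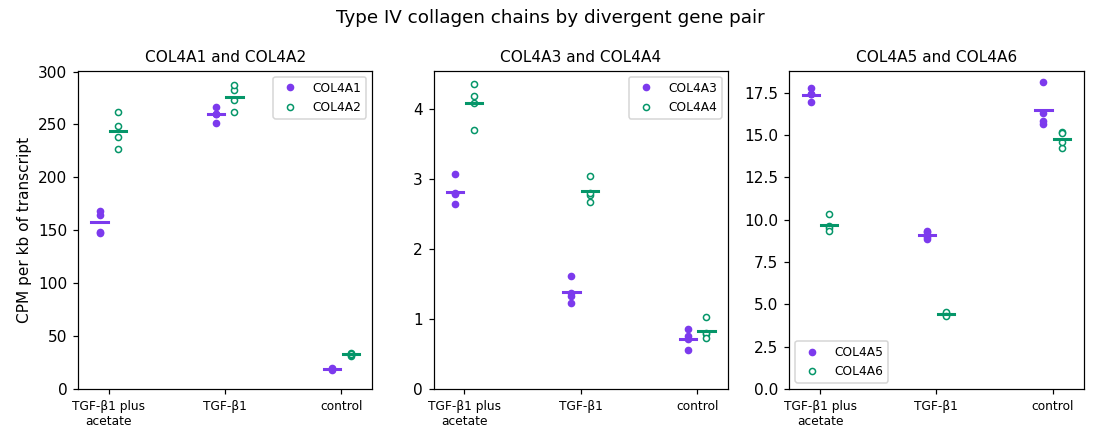
Level of the type IV chains in CPM per kb of transcript (y axis, from 0) in each library, with group means as bars, one panel per head-to-head pair; the groups run from acetate-treated over TGF-β1 to control. COL4A1 and COL4A2 are high in both treated groups, COL4A3 and COL4A4 are highest with acetate, and COL4A5 and COL4A6 are lowest with TGF-β1 alone.

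All 8 fibrillar genes tested against control were at least 2-fold higher under TGF-β1, against 8.92% of all genes, with log2 fold changes of 1.33 to 5.03. All 8 were also at least 2-fold higher with acetate against control, against 14.3% of all genes. COL3A1 and COL5A3 had few control counts (7 to 15 and 5 to 12 per library) and could pass the filter through the treated libraries alone. COL1A1 (ENSG00000108821.13, chromosome 17, 50183289 to 50201632) encodes the α1 chain of type I collagen, the main collagen of scar and bone. It had 299, 227, 209.9 and 265 CPM with acetate, 295, 306, 286 and 295 CPM with TGF-β1 and 9.93, 9.33, 9.17 and 7.9 CPM in control. Its rise under TGF-β1 was 5.03 ± 0.06 on the log2 scale (edgeR adjusted p = 2.1e-19). The acetate libraries spread more widely than the TGF-β1 libraries and overlapped them, with a log2 fold change of -0.23 ± 0.08 (edgeR adjusted p = 0.02). This call was lost when DESeq2 was used (adjusted p = 0.055), when libraries were scaled by totals (-0.10, edgeR adjusted p = 0.30) and when acetate library S23 was left out (-0.19, edgeR adjusted p = 0.068), and adjusted p spanned 0.0004 to 0.30.

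COL1A2, which encodes the α2 chain that joins 2 α1 chains in common type I collagen, was near the detection floor. It had 0.278, 0.26, 0.213 and 0.321 CPM with acetate and 0.123, 0.20, 0.0987 and 0.268 CPM with TGF-β1 alone, and the groups overlapped (log2 fold change 0.67 ± 0.36, edgeR adjusted p = 0.12). Per kb of transcript, COL1A1 stood at 37.2 ± 5.96 CPM with acetate and 43.9 ± 1.22 with TGF-β1, and COL1A2 at 0.0495 ± 0.00825 and 0.0318 ± 0.0142. COL3A1, the chain of type III collagen found beside type I in soft tissue, had 0.889, 0.91, 0.685 and 0.778 CPM with acetate, 0.956, 0.856, 1.32 and 1.05 CPM with TGF-β1 and 0.205, 0.306, 0.179 and 0.132 CPM in control. It was higher under TGF-β1 by 2.35 ± 0.27 on the log2 scale, and acetate gave -0.37 ± 0.19, which did not pass (edgeR adjusted p = 8.3e-07 and 0.11).

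Type V collagen starts fibrils and limits their width. COL5A1 and COL5A2 were the most abundant fibrillar chains measured per kb of transcript in acetate-treated, TGF-β1 and control libraries alike. COL5A1 (ENSG00000130635.15, chromosome 9, 134641774 to 134844843) had 2001, 1696, 1623 and 1852 CPM with acetate, 1220.4, 1319, 1254 and 1315 CPM with TGF-β1 and 154, 149.8, 139.8 and 146 CPM in control. COL5A2 (ENSG00000204262.11, chromosome 2, 189031896 to 189179879) had 694, 677, 662 and 703 CPM with acetate, 825, 822, 867 and 853 CPM with TGF-β1 and 288, 289, 287 and 279 CPM in control. No 2 groups overlapped for either gene, but acetate moved them in opposite directions. TGF-β1 raised COL5A1 by 3.12 ± 0.04 and COL5A2 by 1.56 ± 0.03 on the log2 scale. Acetate then gave 0.50 ± 0.05 for COL5A1 and -0.29 ± 0.03 for COL5A2 (edgeR adjusted p = 5.2e-07 and 7.9e-07). COL5A2 lies 19149 bases from COL3A1 on chromosome 2, on the opposite strand. COL5A3, a further type V chain, was scarce, with 2.36, 1.53, 2.03 and 2.2 CPM with acetate, 0.466, 0.656, 0.848 and 0.804 CPM with TGF-β1 and 0.102, 0.163, 0.23 and 0.226 CPM in control. Its log2 fold changes were 1.95 ± 0.31 under TGF-β1 and 1.54 ± 0.20 with acetate (edgeR adjusted p = 2.8e-05 and 6.0e-06). COL5A3 shares 270 exon bases with an antisense gene, AC008742.1, which had no row.

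COL27A1 and the type XI genes are best known from cartilage. COL27A1 (chromosome 9, 114155560 to 114312511) had 82.1, 72, 64.5 and 79.4 CPM with acetate, 109.7, 113, 104 and 111 CPM with TGF-β1 and 31.3, 32.1, 33.1 and 29.1 CPM in control. It was above control in both treated groups and lower with acetate than with TGF-β1 alone (log2 fold changes 1.81 ± 0.04 for TGF-β1 and -0.55 ± 0.06 for acetate; edgeR adjusted p = 1.4e-15 and 8.5e-07). COL11A1 had 5.19, 5.3, 4.47 and 5.72 CPM with acetate, 3.46, 3.62, 3.41 and 4.43 CPM with TGF-β1 and 1.45, 0.837, 0.766 and 1.15 CPM in control. COL11A2 had 5.94, 5.07, 5.93 and 4.79 CPM with acetate, 2.48, 3.02, 3.49 and 3.12 CPM with TGF-β1 and 1.29, 1.37, 0.92 and 1.24 CPM in control. Both type XI genes were lowest in control and highest with acetate in all libraries. Their log2 fold changes under TGF-β1 were 1.81 ± 0.17 and 1.33 ± 0.15, and with acetate 0.48 ± 0.11 and 0.85 ± 0.12 (edgeR adjusted p = 0.0011 and 1.0e-05 for acetate). COL2A1, the main cartilage collagen, had 0.389, 0.39, 0.331 and 0.527 CPM with acetate and 0.049, 0.0856, 0.0395 and 0.0731 CPM with TGF-β1, without overlap. It totalled 66 counts over the acetate libraries and 10 over the TGF-β1 libraries, a ratio of 6.89 per effective library size (95% exact interval 3.52 to 15, counting error only). Its row was present only alongside the acetate libraries, so it could be compared only through the group where it was high.

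Partner chains of one collagen type were compared within libraries. The ratio of 2 chains in the same library does not depend on scaling, and it was compared over libraries by an exact two-sided permutation test, 4 against 4, whose smallest possible p is 0.0286. Of 10 pairs listed by protein composition, those with at least 10 counts of each chain in every library gave 20 tests over the 3 comparisons, adjusted together. Per kb of transcript, COL5A1 stood to COL5A2 as 2.19 to 1 with acetate, 1.27 to 1 with TGF-β1 and 0.431 to 1 in control. The log2 ratio was higher by 1.56 under TGF-β1 and by a further 0.79 with acetate (exact permutation p = 0.0286, adjusted p = 0.041 for each). The log2 ratio of COL4A1 to COL4A2 was higher by 0.69 under TGF-β1 than in control, and its difference with acetate against TGF-β1 was -0.54 (exact permutation p = 0.0286, adjusted p = 0.041 for each). That placed it per kb at 0.646 to 1 with acetate, 0.94 to 1 with TGF-β1 and 0.583 to 1 in control.

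For COL4A3 to COL4A4 the ratio per kb was 0.691 to 1 with acetate, 0.49 to 1 with TGF-β1 and 0.858 to 1 in control, with log2 differences of -0.81 for TGF-β1 and 0.50 for acetate. For COL4A5 to COL4A6 it was 1.8 to 1 with acetate, 2.05 to 1 with TGF-β1 and 1.11 to 1 in control, with log2 differences of 0.88 and -0.19. Libraries of the groups did not overlap in any of these 4 tests, and each reached the smallest p (exact permutation p = 0.0286, adjusted p = 0.041). With acetate against control the COL4A3 to COL4A4 ratio overlapped (log2 difference -0.31, exact permutation p = 0.0857, adjusted p = 0.1), whereas the other 2 type IV ratios and the type V ratio did not. With 1 library left out the smallest possible p is 0.029. COL4A5 to COL4A6 with acetate then gave 0.057 without TGF-β1 library S16, S17 or S18, COL4A1 to COL4A2 against control gave 0.057 without control library S4, and COL4A3 to COL4A4 against control gave 0.029 without control library S1 (exact permutation p-values). COL11A1 to COL11A2 differed by 0.53 under TGF-β1 on the log2 scale and by -0.37 with acetate, in overlapping groups (exact permutation p = 0.0571, adjusted p = 0.076 for TGF-β1 and p = 0.114, adjusted p = 0.13 for acetate).

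**Figure D5:**
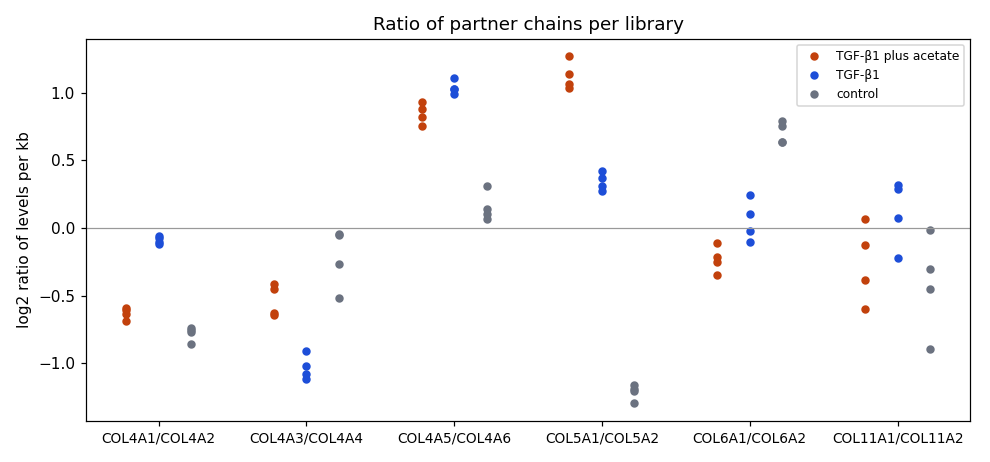
Log2 ratio of partner chains per kb of transcript (y axis) in each library for 6 pairs (x axis), with acetate-treated libraries left, TGF-β1 in the middle and control right within each pair. The COL5A1 to COL5A2 ratio separates all 3 groups, and the COL4A1 to COL4A2 ratio is highest with TGF-β1 alone.

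Type VI collagen forms beaded filaments around basement membranes, and its chains COL6A1, COL6A2 and COL6A3 assemble together. COL6A1 (ENSG00000142156.14, chromosome 21, 45981737 to 46005050) had 64.6, 55.5, 62.6 and 58.3 CPM with acetate, 16.3, 16.3, 18.6 and 18.6 CPM with TGF-β1 and 13.7, 12.7, 13.4 and 14.2 CPM in control. COL6A2 (ENSG00000142173.14, chromosome 21, 46098097 to 46132849) had 57.1, 57.6, 60.9 and 55.2 CPM with acetate, 12.4, 14.4, 12.8 and 15.4 CPM with TGF-β1 and 6.47, 6.67, 6.46 and 7.47 CPM in control. COL6A3 had 8.56, 7.05, 6.83 and 8.04 CPM with acetate, 2.11, 2.31, 2.68 and 2.78 CPM with TGF-β1 and 0.123, 0.245, 0.179 and 0.188 CPM in control. All 3 genes were lowest in control and highest with acetate, without overlap. Under TGF-β1 the log2 fold changes were 0.38 ± 0.06 for COL6A1, 1.02 ± 0.08 for COL6A2 and 3.74 ± 0.21 for COL6A3. With acetate they were 1.79 ± 0.06, 2.08 ± 0.06 and 1.63 ± 0.11, with edgeR adjusted p of at most 3.1e-09. COL6A1 and COL6A2 lie 93046 bases apart on one strand of chromosome 21. Their ratio per kb was 0.852 to 1 with acetate, 1.04 to 1 with TGF-β1 and 1.63 to 1 in control (exact permutation p = 0.0286, adjusted p = 0.041 for TGF-β1 against control and for acetate against TGF-β1), and the acetate test gave an exact permutation p of 0.057 without any 1 of the acetate libraries or without TGF-β1 library S15 or S17. COL6A3 was far scarcer per kb, with COL6A1 at 20.1 to 1 with acetate and 17.9 to 1 with TGF-β1, which overlapped (exact permutation p = 0.0857, adjusted p = 0.1). COL6A6 averaged 0.341 ± 0.0891 CPM, 0.329 ± 0.105 CPM and 0.28 ± 0.051 CPM in acetate, TGF-β1 and control libraries and passed in no comparison.

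COL7A1 (ENSG00000114270.16, chromosome 3, 48564073 to 48595267) encodes the anchoring fibrils that tie epithelial basement membranes to the tissue below. It had 802, 699, 696 and 731 CPM with acetate, 444, 473, 479.9 and 447 CPM with TGF-β1 and 289, 303, 332 and 286 CPM in control. The 3 groups did not overlap, with acetate highest. Log2 fold changes were 0.61 ± 0.05 for TGF-β1 and 0.68 ± 0.04 for acetate (edgeR adjusted p = 4.2e-09 and 2.7e-09).

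The FACIT genes moved in both directions, with 4 of 8 higher and 3 lower under TGF-β1, against 34.1% and 32.8% of all genes, and 5 higher and 3 lower with acetate, against 33.3% and 30.4%. The shares lower were near those of all genes. Among the 4 higher under TGF-β1, COL22A1, COL14A1 and COL9A2 had few control counts and could pass the filter through the TGF-β1 libraries alone. COL22A1 (ENSG00000169436.16, chromosome 8, 138588235 to 138914006), a collagen of tissue junctions, had 28.4, 26.1, 25.3 and 27.7 CPM with acetate, 69.9, 71.5, 77.7 and 74.3 CPM with TGF-β1 and 0.266, 0.245, 0.0766 and 0.0752 CPM in control. Control libraries held 32 counts in all, against 4300 with acetate and 12347 with TGF-β1. The ratio of TGF-β1 to control was 438 with a 95% exact interval of 310 to 640 (counting error only). Single control libraries held 13, 12, 3 and 4 counts, a spread that the interval leaves out. Acetate gave a log2 fold change of -1.44 ± 0.05 against TGF-β1 alone (edgeR adjusted p = 6.9e-13). COL20A1 had 6.94, 6.47, 6.03 and 7.12 CPM with acetate, 8.14, 8.73, 8.03 and 7.5 CPM with TGF-β1 and 0.471, 0.429, 0.69 and 0.508 CPM in control. It was far above control in both treated groups, with acetate libraries just below TGF-β1 libraries, and had a log2 fold change of 3.97 ± 0.12 for TGF-β1 and -0.28 ± 0.08 for acetate. The acetate call (edgeR adjusted p = 0.0063) was lost when scaled by totals (-0.14, edgeR adjusted p = 0.14), and adjusted p spanned 0.0029 to 0.14.

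COL12A1, COL16A1 and COL21A1 went the other way. COL12A1 (ENSG00000111799.20, chromosome 6, 75084326 to 75206051), which bridges fibrils under load, had 32.9, 36.6, 32.1 and 33 CPM with acetate, 12.8, 12.1, 12.9 and 12.2 CPM with TGF-β1 and 30.2, 41.1, 31.4 and 30 CPM in control. COL16A1 had 6.47, 5.95, 7.0 and 6.89 CPM with acetate, 3.7, 4.14, 4.22 and 3.53 CPM with TGF-β1 and 6.94, 6.69, 7.41 and 7.37 CPM in control. COL21A1 had 4.67, 4.68, 6.38 and 4.62 CPM with acetate, 0.392, 0.571, 0.71 and 0.463 CPM with TGF-β1 and 7.25, 7.47, 7.28 and 6.23 CPM in control. All 3 were lowest with TGF-β1 alone, below every library of both other groups. Log2 fold changes under TGF-β1 were -1.40 ± 0.09, -0.86 ± 0.08 and -3.69 ± 0.14, and with acetate 1.44 ± 0.05, 0.76 ± 0.09 and 3.24 ± 0.18, with edgeR adjusted p of at most 2.4e-06. Acetate-treated cells against control gave 0.02 ± 0.08 for COL12A1 and -0.11 ± 0.08 for COL16A1, which did not pass (edgeR adjusted p = 0.84 and 0.23), and -0.47 ± 0.11 for COL21A1, which did (edgeR adjusted p = 0.0011) although acetate library S24 overlapped control. An antisense gene, AC114488.2, shares 117 exon bases with COL16A1 and averaged 58.2 counts with acetate, 57.2 with TGF-β1 and 92.5 in control, against 264.8, 163.8 and 337.2 counts of COL16A1.

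COL9A3, a chain of type IX collagen from cartilage, had 2.36, 2.39, 2.32 and 2.72 CPM with acetate, 0.932, 0.999, 1.18 and 1.34 CPM with TGF-β1 and 0.655, 1.16, 0.894 and 1.07 CPM in control. Only the acetate libraries stood apart, with a log2 fold change of 1.14 ± 0.15 against TGF-β1 (edgeR adjusted p = 5.3e-06) and 0.24 ± 0.20 for TGF-β1 against control (edgeR adjusted p = 0.3). Its partner COL9A2 averaged 0.958 ± 0.0432, 0.362 ± 0.104 and 0.129 ± 0.0615 CPM in acetate, TGF-β1 and control libraries, with log2 fold changes of 1.47 ± 0.38 for TGF-β1 and 1.44 ± 0.23 for acetate, and the COL9A2 to COL9A3 ratio did not differ beyond its spread with acetate (log2 difference 0.27, exact permutation p = 0.343, adjusted p = 0.36). COL9A3 shares 45 exon bases with TCFL5 on the opposite strand, which averaged 940.2 counts with acetate, 674.0 with TGF-β1 and 603.0 in control, against 98.5, 47.0 and 45.2 counts of COL9A3. TCFL5 thus had more counts than COL9A3 in all groups and was also highest with acetate. The strand setting of the counting is not given, so the share of common reads is uncertain. COL14A1 stayed below 1 CPM in all libraries, at 0.263 ± 0.0698, 0.81 ± 0.0797 and 0.127 ± 0.0414 CPM, with log2 fold changes of 2.66 ± 0.28 for TGF-β1 and -1.61 ± 0.25 for acetate.

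The multiplexin genes COL15A1 and COL18A1 encode basement membrane collagens whose C-terminal fragments restrain vessel growth. COL15A1 (chromosome 9, 98943179 to 99070792) had 10.5, 9.0, 11.7 and 10.5 CPM with acetate, 8.9, 8.33, 8.7 and 8.6 CPM with TGF-β1 and 0.348, 0.429, 0.332 and 0.132 CPM in control. COL18A1 (ENSG00000182871.14, chromosome 21, 45405137 to 45513720) had 319.9, 276, 326 and 297 CPM with acetate, 267, 307, 290.3 and 308 CPM with TGF-β1 and 215, 217, 216 and 222 CPM in control. COL15A1 was barely detected in control and present in every treated library, while COL18A1 was abundant throughout. TGF-β1 raised them by 4.81 ± 0.16 and 0.43 ± 0.04 on the log2 scale (edgeR adjusted p = 1.1e-13 and 1.1e-07). Acetate gave 0.28 ± 0.08 for COL15A1 (edgeR adjusted p = 0.0049) and 0.07 ± 0.05 for COL18A1, which did not pass (edgeR adjusted p = 0.28) except when scaled by totals (0.20, edgeR adjusted p = 0.0014), with adjusted p spanning 0.0014 to 0.99. COL18A1 shares 1401 exon bases with SLC19A1 on the opposite strand, which averaged 5118.5 counts with acetate, 5088.2 with TGF-β1 and 4542.2 in control, against 12226.8, 12247.5 and 10352.0 counts of COL18A1, and since the strand setting of the counting is not given in the sources used here, the share of common reads is uncertain.

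Transmembrane and short-chain genes were low. COL13A1, a transmembrane collagen of cell adhesion sites, had 1.36, 1.43, 1.47 and 1.14 CPM with acetate, 0.147, 0.20, 0.276 and 0.268 CPM with TGF-β1 and 0.328, 0.327, 0.0766 and 0.094 CPM in control. The acetate libraries lay above all others, by 2.57 ± 0.23 on the log2 scale against TGF-β1 (edgeR adjusted p = 1.1e-07), whereas TGF-β1 against control gave 0.11 ± 0.45 (edgeR adjusted p = 0.84). COL17A1, the hemidesmosome collagen of basal epithelial cells, averaged 1.35 ± 0.125 CPM with acetate, 1.1 ± 0.291 CPM with TGF-β1 and 1.04 ± 0.135 CPM in control and passed in no comparison. COL8A2, a network collagen of Descemet's membrane and vessels, had 1.19, 1.04, 1.39 and 1.17 CPM with acetate, 0.466, 0.285, 0.197 and 0.487 CPM with TGF-β1 and 0.246, 0.245, 0.204 and 0.244 CPM in control. It was higher with acetate against TGF-β1 (1.76 ± 0.26, edgeR adjusted p = 2.1e-05), and TGF-β1 against control did not pass (0.59 ± 0.33, edgeR adjusted p = 0.13) except when TGF-β1 library S17 was left out (0.82, edgeR adjusted p = 0.034), with adjusted p spanning 0.034 to 0.35. COL10A1, a collagen of hypertrophic cartilage, averaged 1.21 ± 0.401, 1.16 ± 0.43 and 0.964 ± 0.307 CPM in acetate, TGF-β1 and control libraries and passed in no comparison.

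COL26A1 and COL28A1 belong to none of these classes and moved in opposite directions under TGF-β1. COL26A1 had 0.833, 0.676, 0.473 and 0.916 CPM with acetate, 2.28, 2.77, 2.51 and 2.07 CPM with TGF-β1 and 0.328, 0.469, 0.255 and 0.226 CPM in control, highest with TGF-β1 alone. Its log2 fold changes were 2.90 ± 0.21 for TGF-β1 and -1.72 ± 0.19 for acetate (edgeR adjusted p = 2.1e-09 and 9.7e-07). COL28A1 had 1.0, 1.66, 1.21 and 1.14 CPM with acetate, 0.049, 0.114, 0.0592 and 0.0731 CPM with TGF-β1 and 0.553, 0.612, 0.587 and 0.658 CPM in control, lowest with TGF-β1 alone. Its TGF-β1 libraries held 12 counts in all, against 201 with acetate and 115 in control. The ratio of acetate to TGF-β1 was 17.5 (95% exact interval 9.8 to 34.4) and that of TGF-β1 to control 0.118 (0.0594 to 0.215). Both intervals cover counting error only and leave out the spread between libraries.

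Genes that fold, trim and crosslink collagen were counted from a list of 35. Under TGF-β1, 28 of 33 tested were higher and 4 lower, with a median log2 fold change of 0.49, against 34.1% higher and 32.8% lower over all genes. With acetate 16 of 34 were higher and 6 lower, with a median of 0.08, against 33.3% and 30.4% over all genes, so the share called in either direction was near the 63.7% of all genes. ADAMTS2 and ADAMTS3, both among those higher, had a row only alongside the acetate libraries, where they were high. P4HA3, a subunit of the prolyl hydroxylase that stabilises the triple helix, averaged 82.1 ± 1.8 CPM with acetate, 149.7 ± 1.04 CPM with TGF-β1 and 24 ± 0.595 CPM in control, with log2 fold changes of 2.64 for TGF-β1 and -0.86 for acetate. BMP1, the protease that removes the C-propeptide of fibrillar procollagens, rose by 1.51 under TGF-β1. MIA2, which takes part in loading large cargo into transport vesicles, averaged 5.12 ± 0.598 CPM with acetate, 0.539 ± 0.0562 CPM with TGF-β1 and 11.2 ± 0.394 CPM in control, and P3H2, which hydroxylates prolines of type IV collagen, rose by 0.64 with acetate. Of collagen receptors, 7 of 11 tested were higher and 2 lower under TGF-β1, against 34.1% and 32.8% of all genes. With acetate 5 of 11 were higher and 4 lower, against 33.3% and 30.4% of all genes. The integrin chains ITGA11 and ITGA1 had log2 fold changes of 4.86 and 3.53 for TGF-β1 and -1.10 and -1.21 for acetate, the uptake receptor MRC2 rose by 2.03 under TGF-β1, and ITGA2 rose by 1.24 with acetate. Among these named changes the largest edgeR adjusted p was 4.8e-10.

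Markers were set beside these results. Of 8 epithelial cell line markers, 2 were higher and 5 lower under TGF-β1, against 34.1% and 32.8% of all genes, and 7 were higher and 1 lower with acetate against TGF-β1, where 33.3% and 30.4% of all genes were. The epithelial adhesion genes CDH1 and EPCAM averaged 45.5 ± 2.56 and 5.63 ± 0.338 CPM with acetate, 1.46 ± 0.394 and 1.08 ± 0.224 CPM with TGF-β1 and 58.7 ± 2.8 and 4.22 ± 0.327 CPM in control, and the keratin KRT19 averaged 58.4 ± 8.99, 7.01 ± 0.649 and 36.6 ± 3.19 CPM. AKR1B10 averaged 634 ± 56.5, 269 ± 10.4 and 3484 ± 79.3 CPM in the same order, so it stayed far below control with acetate (log2 fold change -2.46). KRT7 rose by 0.33 on the log2 scale under TGF-β1, and KRT8 did not pass (edgeR adjusted p = 0.95). With acetate against control, 4 of the 8 markers were higher and 3 lower, against 36.1% and 34.4% of all genes. ALDH1A1, an aldehyde dehydrogenase abundant in A549, was the 1 marker lower with acetate than with TGF-β1 alone. It averaged 6736 ± 105 CPM with acetate, 13781 ± 311 CPM with TGF-β1 and 8919 ± 298 CPM in control, and it sets the order of the summed level. All 8 summed to 14020 to 15106 CPM with acetate, 19403 to 20593 CPM with TGF-β1 and 17971 to 18953 CPM in control. Of 10 fibroblast markers other than collagens, 9 had a row and MFAP5 had none, and they summed to 84.7 to 94.1 CPM with acetate, 42.4 to 47.8 CPM with TGF-β1 and 21.5 to 22.6 CPM in control. Among them LUM, which encodes a collagen-binding proteoglycan, averaged 15.3 ± 1.43, 4.36 ± 0.352 and 0.407 ± 0.055 CPM, and THY1, a fibroblast surface protein, 44.4 ± 2.6, 7.91 ± 0.76 and 4.35 ± 0.313 CPM, in the same order, while PDGFRA rose by 1.02 on the log2 scale with acetate. FBLN1 and FAP rose by 0.83 and 4.36 under TGF-β1 and had log2 fold changes of -0.21 and -0.94 with acetate. PDGFRB rose by 2.39 under TGF-β1 and had -1.11 with acetate, and TCF21 had -3.15 under TGF-β1. DCN, at only 0.0264 CPM in control, rose by 3.64 under TGF-β1 and by 0.87 with acetate. Of those tested, 7 of 8 were higher and 1 lower under TGF-β1, against 34.1% and 32.8% of all genes, and 4 of 7 were higher and 3 lower with acetate, against 33.3% and 30.4%. The part of these genes in the collagen results was not tested. Of 6 leukocyte markers PTPRC, CD3E and LYZ had no row and the other 3 summed to 24.2 to 25.5, 13.7 to 16.9 and 12.1 to 14.9 CPM in acetate, TGF-β1 and control libraries, and of 6 endothelial markers PECAM1, CDH5, VWF and KDR had no row and the other 2 summed to at most 1.42 CPM.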

How the data were processed

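RNA of 12 A549 libraries was measured by stranded total RNA sequencing with paired reads of 75 bp, per the labels' protocols. The authors deposited 2 tables of raw counts per gene; per the submitters' processing notes the tools were bcl2fastq, HISAT2 and limma on hg38, while the program that counted reads, how it treated strand and which annotation it used are not given here in any source. A further 32 columns of per-library values were not used. The members and lists were chosen with earlier results of these data known. All 37 members matched GENCODE release 29 by unversioned identifier; their transcript length is that of the longest coding transcript there, and exon overlaps come from it too. Positions are those in the tables.

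Counts were fitted over all genes in R 4.3.3 with edgeR 4.0.16 (filterByExpr with minimum count 10 and minimum total 15, TMM factors, glmQLFit and glmQLFTest, two-sided, Benjamini-Hochberg adjustment, threshold 0.05). TGF-β1 against control and acetate against TGF-β1 were each fitted in the table holding both groups, with 22051 and 22336 genes tested, and acetate against control in a joint fit of all 12 libraries with 22742. The standard error is the log2 fold change divided by the root of the F statistic. CPM values use TMM-adjusted totals of the joint fit. Chain ratios used log2 counts with 0.5 added. Values in every library are given for the 27 members that averaged at least 1 CPM in a group and changed at least 2-fold in a comparison; 5 more above 1 CPM are given by mean or by library, and 5 stayed below it. Each other list contributes the 3 top genes by p of each of the first 2 comparisons, some left undescribed. Chi-square over degrees of freedom between libraries of 1 group was 3.95 to 17.3, above sampling noise, so no library was a duplicate. Alternatives were other scalings, no filter, DESeq2 1.42.0, limma-voom (limma 3.58.1), another set of libraries in the fit, and each library left out.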

Additional observations from a re-analysis of the deposited data

Results flagged for a closer look

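In 3 of 96 groups of 4 libraries examined (32 genes in 3 groups), 1 library stood apart from the other 3 by Dixon's test at the 95% level, where chance flags about 1 group in 20. COL21A1 had 6.38 CPM in acetate library S24, against 4.62 to 4.68 CPM in the other 3 acetate libraries. COL12A1 had 41.1 CPM in control library S2, against 30.0 to 31.4 CPM in the other 3 control libraries. COL8A2 had 0.204 CPM in control library S3, against 0.244 to 0.246 CPM in the others, at 8 to 13 counts per library. The calls for COL21A1 and COL12A1 given above were on the same side of the threshold with these libraries left out.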

How the results depend on the processing

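No paired analysis was possible because the count columns carry no replicate number. Requiring at least a 2-fold change lowered the collagen counts with acetate against TGF-β1 to 17 called, 14 higher and 3 lower, and left 0 lower against control; over all genes it gave 1968 higher and 1915 lower under TGF-β1, 2403 and 462 with acetate against TGF-β1, and 3263 and 1245 with acetate against control. The median log2 fold change of the collagen genes with acetate against TGF-β1 was 0.80 with library totals, 0.53 in a joint fit of 12 libraries and 0.53 to 0.70 with 1 library left out. Against control it was 2.05 in a fit of 8 libraries and 1.97 to 2.10 with 1 library left out. No called value changed direction. The log2 fold changes of COL10A1 (TGF-β1 against control and acetate against TGF-β1), COL13A1 and COL17A1 (TGF-β1 against control), COL12A1 (acetate against control) and COL18A1 (acetate against TGF-β1), which did not pass, took either sign over the alternatives. Of 96 collagen log2 fold changes, the calls that switched side of the threshold were those named above for COL1A1, COL4A2, COL18A1, COL20A1, COL4A5 and COL8A2. For all these changes the cause was not tested. Library totals gave 6078 higher and 8676 lower genes under TGF-β1, in place of 7518 and 7224. Depth limits COL2A1 and COL28A1 with TGF-β1 alone, at 2 to 4 counts per library, and COL1A2, at 5 to 14. It also limits the fold changes against control of genes with few control counts. Among these are COL13A1 (3 to 16 per control library), COL22A1 (3 to 13), COL14A1 (4 to 9), COL9A2 (4 to 10), COL6A3 (6 to 12) and COL5A3 (5 to 12).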
